A study of Homo sapiens with 9 samples.

Results

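The 43 genes described here make up most of the pathway by which sterol regulatory element-binding proteins (SREBPs) set the supply of fatty acids and cholesterol. They were taken by name from a list of regulators, enzymes and related genes, which was drawn up with earlier results of these data known, and all 43 were found among the 58735 genes of the table. By role they were 5 regulators, 12 genes of the fatty acid arm, 18 genes of the sterol arm, 2 genes of sterol handling, 3 genes of fatty acid activation and glycerolipid synthesis, and 3 genes tied to the liver X receptors (LXRs). Their transcripts were measured in 9 libraries of wild-type MDA-MB-231, a human breast cancer cell line, grown in DMEM with fetal bovine serum. The series asks what the secretions of senescent cancer cells do to cells of the same line. The No CM group received medium alone, Cont CM received medium conditioned by non-senescent MDA-MB-231 cells, and TIS CM received medium conditioned by MDA-MB-231 cells in therapy-induced senescence. Senescence had been induced by 72 h of nocodazole, a drug that blocks microtubule assembly, at 100 ng/ml. There were 3 libraries per group. Time in these media is 72 h by the sample labels and 48 h by the design text. Neither source says that replicates came from separate cultures, so the p-values rest on the spread among these libraries alone, and that spread may be technical.

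SREBPs are made as membrane proteins of the endoplasmic reticulum, where SCAP escorts them. When sterols are plentiful, INSIG proteins hold SCAP back. When sterols are scarce, SCAP carries SREBP to the Golgi, where proteases free the part that enters the nucleus and switches on lipid genes. SREBF1 encodes SREBP-1a and SREBP-1c, best known for fatty acid genes, and SREBF2 encodes SREBP-2, best known for cholesterol genes. LXRs respond to oxidized sterols and drive cholesterol export, and they also raise transcription of SREBP-1c. Gene-level values do not separate the SREBP-1a and SREBP-1c transcripts.

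Promoter sequences are shown for the 2 regulators SREBF1 and INSIG1, which the rule of choice named, and for the fatty acid enzyme SCD. SCD was taken for its values, as the fatty acid arm gene with the largest difference that passed between Cont CM and No CM. NSDHL is shown beside them as a sterol arm gene that did not differ, and it was chosen after its values were seen, for its 5 CCAAT matches, as many as MVK and more than the other sterol arm genes in the table. Each is the 250 bases before a RefSeq start site (GRCh38.p14), 5′ to 3′ on the gene's own strand. They lie at chr17:17836987-17837236 on the minus strand (SREBF1), chr7:155297628-155297877 on the plus strand (INSIG1), chr10:100346983-100347232 on the plus strand (SCD) and chrX:152830813-152831062 on the plus strand (NSDHL). The annotation of the FPKM values puts the 5′ ends of these genes at 17837002 (SREBF1), 155297776 (INSIG1), 100347124 (SCD) and 152830967 (NSDHL). The last bases of each window, next to the RefSeq start, therefore lie inside the annotated gene. Capitals mark matches, on either strand, to CACNCCAC (a core of the sterol regulatory element), CACGTG (the E-box), CCAAT (the NF-Y box) and GGGCGG (the Sp1 box).
SREBF1: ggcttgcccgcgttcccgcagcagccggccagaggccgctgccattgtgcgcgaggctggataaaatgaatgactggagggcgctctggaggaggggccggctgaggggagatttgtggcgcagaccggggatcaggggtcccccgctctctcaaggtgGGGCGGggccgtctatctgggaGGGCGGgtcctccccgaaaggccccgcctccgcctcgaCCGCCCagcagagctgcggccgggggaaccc
INSIG1: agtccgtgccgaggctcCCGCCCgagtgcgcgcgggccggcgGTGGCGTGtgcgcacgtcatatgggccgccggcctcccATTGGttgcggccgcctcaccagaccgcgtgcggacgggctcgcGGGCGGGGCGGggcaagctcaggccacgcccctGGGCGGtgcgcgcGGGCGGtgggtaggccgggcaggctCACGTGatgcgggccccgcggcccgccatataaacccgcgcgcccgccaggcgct
SCD: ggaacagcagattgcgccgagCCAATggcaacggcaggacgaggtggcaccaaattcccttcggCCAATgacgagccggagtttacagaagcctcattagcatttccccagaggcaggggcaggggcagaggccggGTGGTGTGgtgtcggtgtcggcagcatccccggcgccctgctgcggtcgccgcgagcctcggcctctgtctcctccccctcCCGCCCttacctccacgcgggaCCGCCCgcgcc
NSDHL: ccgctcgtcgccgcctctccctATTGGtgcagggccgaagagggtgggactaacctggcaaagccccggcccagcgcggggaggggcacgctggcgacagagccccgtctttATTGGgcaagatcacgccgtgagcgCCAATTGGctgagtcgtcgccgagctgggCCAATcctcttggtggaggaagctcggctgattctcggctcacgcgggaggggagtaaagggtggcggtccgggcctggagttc

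The SREBF1 window, at the outer 5′ end of the gene, held 3 GGGCGG boxes and none of the other motifs. No window before any other SREBF1 start site was examined, so motifs there are not described. INSIG1 held all 4, with CACNCCAC 208 to 201 bases and CACGTG 55 to 50 bases before the start. SCD held CACNCCAC 114 to 107 bases before the start and 2 CCAAT boxes farther out. NSDHL held 5 CCAAT matches, 2 of which overlap because the boxes on opposite strands share letters, and no CACNCCAC. RefSeq entries were found for 40 of the 43 genes, with 61 promoters. CCAAT was present in 15 of 21 sterol arm promoters (71.4%) and in 9 of 17 fatty acid arm promoters (52.9%), against 32.9% of the 13671 promoters of all tested genes and 32% of all 35116 promoters. CACNCCAC was present in 8 of the 61 promoters (13.1%), against 4.75% of promoters of tested genes and 4.87% of all promoters. The longer form TCACNCCAC, which contains CACNCCAC, was present in 2 of the 61 (3.28%, against 0.878% and 0.883%). CACGTG was present in 6 of the 61 (9.84%, against 8.31% and 6.34%), and GGGCGG in 48 (78.7%, against 64.3% and 42.6%). Promoters of 1 gene can share bases, and a match is a description of these letters, not a binding site.

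Levels are FPKM, fragments corrected for gene length and library size, as the authors deposited them. The libraries held 32636708 to 39189036 fragments on genes, and single genes of the pathway ranged from 62 fragments (CYP51A1) to 15421 fragments (ACLY) in a library. Mesenchymal markers of this line were high in every library (VIM 345 to 401 FPKM, AXL 195 to 218, CD44 71.4 to 92.7). Hormone receptor genes were at or near 0 (ESR1 up to 0.00801 FPKM, PGR up to 0.00539), and the epithelial gene CDH1 lay at 0.212 to 1.23 FPKM. Markers of other cell types were low (PTPRC up to 0.0277 FPKM, CD68 up to 0.0885, ALB up to 0.0167, ADIPOQ listed at 0, PECAM1 0.313 to 0.586). Libraries also differed in how their values leaned with the GC content of genes. The correlation of a library's deviations with GC, across genes, was -0.406 in Cont CM library 2 and -0.206 in Cont CM library 3, and lay between -0.0245 and 0.217 in the other 7 libraries. In RNA from whole cultures, fewer cells of a type and less RNA per cell cannot be told apart.

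The first comparison set medium conditioned by non-senescent cells against plain medium. In Cont CM, SREBF1 and genes of the fatty acid arm fell, while no gene of the sterol arm passed the test. Of 42 genes tested, 8 fell, 1 rose and 33 did not pass. Over all 13912 tested genes, 8.56% fell and 7.77% rose, 16.3% together. The 8 that fell were SREBF1, INSIG1, SCD, FADS1, FADS2, FASN, TMEM97 and MYLIP, and the 1 that rose was INSIG2. A gene was said to rise or fall when its adjusted p was under 0.05 in limma, fitted to log2(FPKM + 0.5) of all genes with a mean of at least 0.5 FPKM. Differences are given as log2 fold changes on that scale, which understates changes of low genes.

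SREBF1 (chromosome 17, 17810399 to 17837002, hg38) had the largest difference of the 42 genes. It reached 13.8, 12.8 and 13.9 FPKM in No CM libraries 1 to 3, 7.77, 7.01 and 6.83 in Cont CM and 8.99, 9.59 and 9.01 in TIS CM. The 3 groups did not overlap, with No CM highest, TIS CM between and Cont CM lowest. In Cont CM it fell by 0.86 on the log2 scale (SE 0.06, 1.82-fold, limma adjusted p = 7.87e-05). The fall lay between 0.76 and 0.91 and stayed past the threshold in all 21 alternative analyses. SREBF1 is GC-rich (62.9%), and the value of 0.76 (adjusted p = 0.00014) is the one after the trend with GC content and gene length had been taken out of each library. It shares 556 exon bases with RAI1 on the opposite strand, and no source used here says whether fragments were assigned by strand. RAI1 itself averaged 6.88 FPKM in No CM and 6.48 in Cont CM and did not pass (adjusted p = 0.326).

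SREBF2 did not pass the test. It stood at 14.0, 14.5 and 14.3 FPKM in No CM, 16.9, 12.3 and 13.0 in Cont CM and 12.8, 13.5 and 12.6 in TIS CM. Cont CM library 1 was the highest of all 9 and Cont CM library 2 the lowest, so Cont CM spanned the whole of No CM. The log2 difference was -0.03 (95% interval -0.25 to 0.19, adjusted p = 0.867). Without Cont CM library 1 it was -0.17 and passed (adjusted p = 0.0297), and without Cont CM library 2 it was 0.05. SCAP, the escort, lay at 13.9, 13.6 and 14.1 FPKM in No CM, 13.6, 13.0 and 14.0 in Cont CM and 14.0, 14.2 and 14.6 in TIS CM. Its log2 difference between Cont CM and No CM was -0.03 (adjusted p = 0.608), with overlapping groups.

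The 2 INSIG genes moved in opposite directions. INSIG1 (chromosome 7, 155297776 to 155310235), itself a classical SREBP target, measured 7.68, 6.82 and 7.41 FPKM in No CM, 6.19, 6.44 and 6.25 in Cont CM and 6.16, 6.35 and 6.13 in TIS CM. Both conditioned media lay below all 3 No CM libraries. The fall in Cont CM was 0.20 on the log2 scale (SE 0.05, adjusted p = 0.0267). It missed the threshold without No CM library 1 (adjusted p = 0.084), No CM library 3 (0.0937) or Cont CM library 3 (0.0681). The same held in a fit of only the 2 groups (0.0764) and with a replicate term (0.0687). INSIG2 (chromosome 2, 118088452 to 118110997), which also retains SCAP but is not known as a strong SREBP target, measured 13.0, 14.1 and 13.7 FPKM in No CM, 17.4, 16.2 and 15.8 in Cont CM and 15.3, 14.2 and 14.2 in TIS CM. All 3 Cont CM libraries were above every other library. The rise in Cont CM was 0.27 (SE 0.05, adjusted p = 0.00912) and passed in every alternative.

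**Figure D1:**
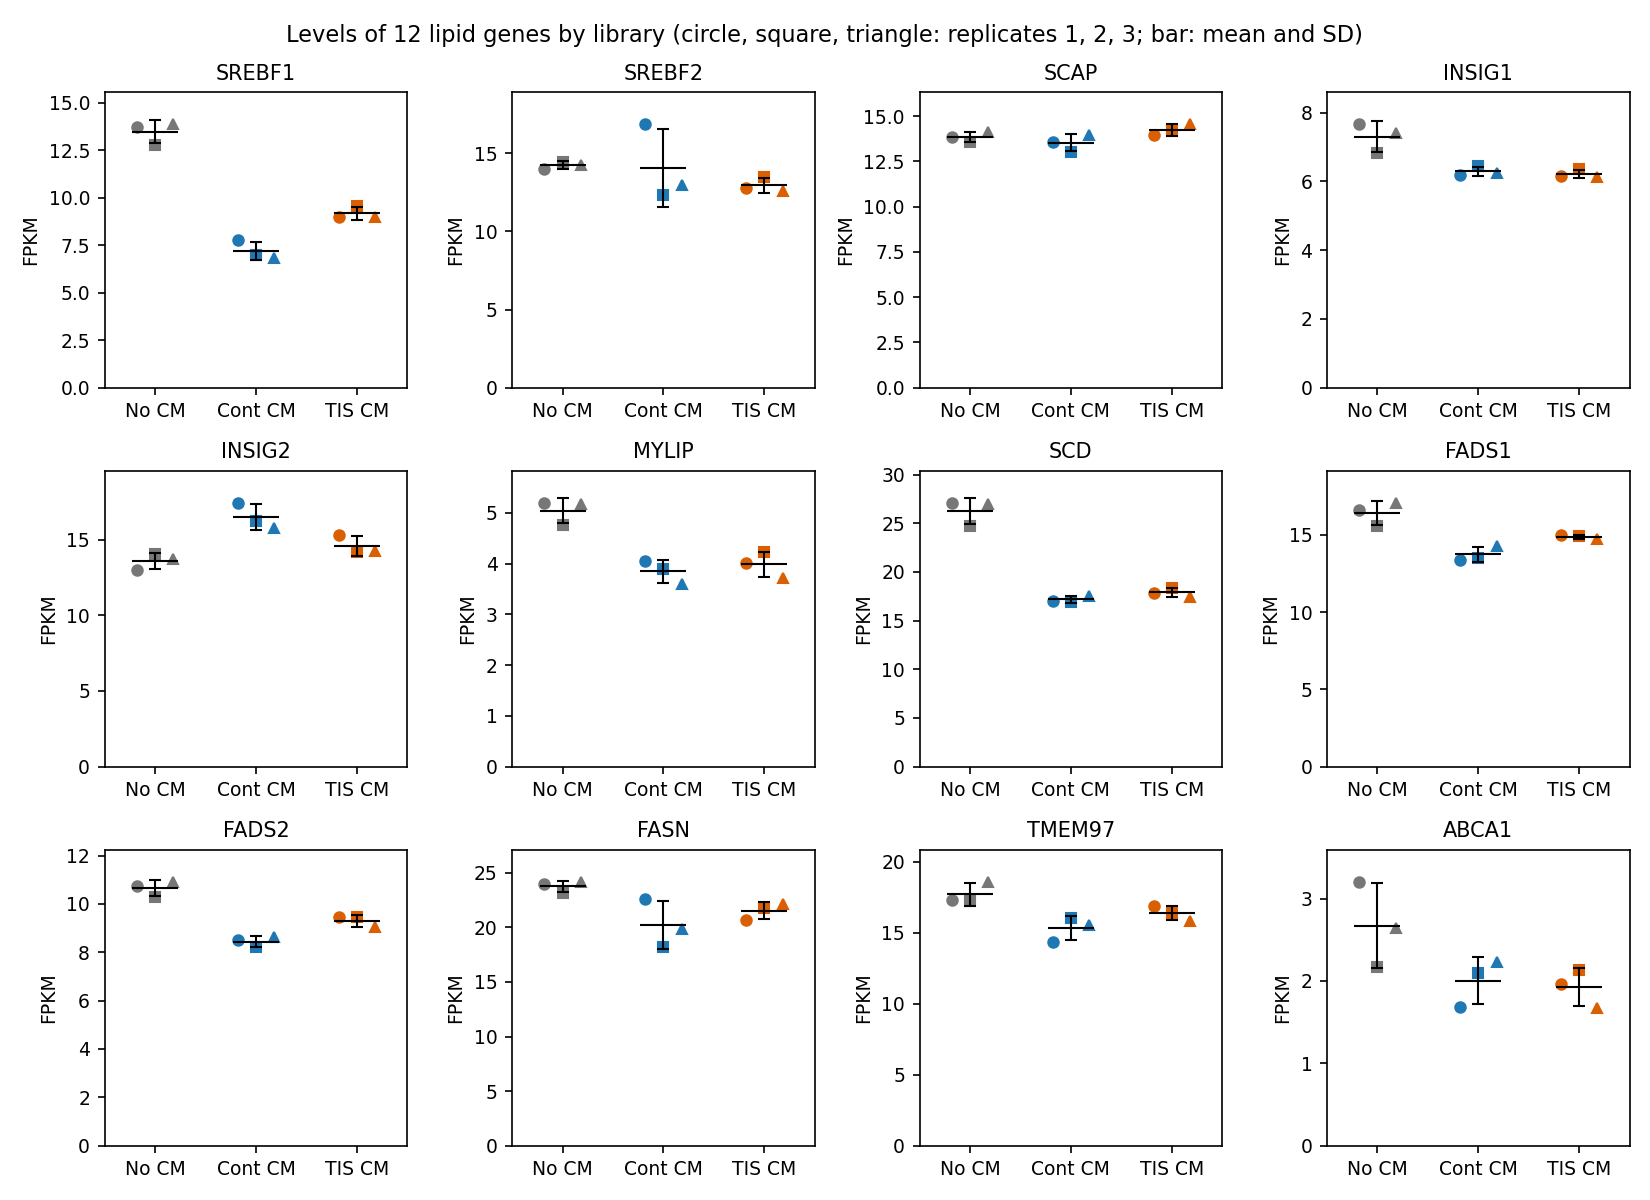
FPKM (vertical axes, from 0) of 12 genes in each library of No CM, Cont CM and TIS CM. Symbols are replicates 1 to 3, and bars are the mean and SD of 3 libraries. SREBF1 and SCD are highest in the 3 No CM libraries, INSIG2 is highest in the 3 Cont CM libraries, and Cont CM overlaps No CM for SREBF2, SCAP and ABCA1.

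In the fatty acid arm, 4 of 11 tested genes fell in Cont CM and none rose. SCD (chromosome 10, 100347124 to 100364834), the desaturase that makes oleate from stearate, was at 27.1, 24.8 and 27.0 FPKM in No CM, 17.1, 16.9 and 17.6 in Cont CM and 17.9, 18.4 and 17.5 in TIS CM. No library of either conditioned medium reached the lowest No CM library. SCD fell by 0.60 in Cont CM (SE 0.04, 1.51-fold, limma adjusted p = 0.000105), and passed in every alternative. Its GC content was 47.1%, and the fall was 0.63 with the GC and length trend removed.

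FADS1 and FADS2, neighbours on chromosome 11 (61799625 to 61829318 and 61792980 to 61867354), encode the desaturases that make long polyunsaturated fatty acids. FADS1 measured 16.6, 15.6 and 17.1 FPKM in No CM, 13.4, 13.5 and 14.3 in Cont CM and 15.0, 15.0 and 14.7 in TIS CM. FADS2 measured 10.8, 10.3 and 10.9 FPKM in No CM, 8.49, 8.21 and 8.63 in Cont CM and 9.46, 9.46 and 9.03 in TIS CM. For both genes all 9 libraries fell into 3 separate groups in the same order, No CM, TIS CM, Cont CM. In Cont CM the fall was 0.25 for FADS1 (SE 0.04, adjusted p = 0.00668). For FADS2 it was 0.32 (SE 0.04, adjusted p = 0.00168). Both passed in every alternative. The 2 genes share 490 exon bases on opposite strands and FADS2 shares 49 with FEN1, so their values are not fully separate.

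FASN (chromosome 17, 82078333 to 82098332), the synthase that builds palmitate, was at 23.9, 23.2 and 24.2 FPKM in No CM, 22.6, 18.2 and 19.8 in Cont CM and 20.7, 21.8 and 22.1 in TIS CM. Cont CM libraries spread widely, with library 1 close to No CM. The fall in Cont CM was 0.23 (SE 0.07, adjusted p = 0.0477), just inside the threshold. FASN has a GC content of 65.8%, and with the GC and length trend removed its fall was 0.13 (adjusted p = 0.101). The adjusted p was 0.113, 0.0859 and 0.137 without No CM library 1, 2 or 3. It was 0.11 and 0.112 without Cont CM library 2 or 3, and 0.0647, 0.0729 and 0.0691 without TIS CM library 1, 2 or 3. The call for FASN held in only 1 of the 6 analyses that left out a No CM or Cont CM library.

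The other 7 tested genes of the arm did not pass. ACLY, which makes cytosolic acetyl-CoA from citrate, was the most abundant of them in No CM after ELOVL5, at 71.7 to 76.9 FPKM over the 9 libraries, and its log2 difference was 0.07 (adjusted p = 0.116). With the GC and length trend removed ACLY rose and passed (0.11, adjusted p = 0.025). ACSS2, which makes acetyl-CoA from acetate, was at 5.54 to 7.07 FPKM, with all Cont CM libraries below all No CM libraries (-0.18, adjusted p = 0.0887). ACACA, the acetyl-CoA carboxylase of the cytosol, lay at 5.47 to 6.49 FPKM in all 9 libraries. The elongase ELOVL6, which extends palmitate, showed -0.22 (adjusted p = 0.145) and a range of 15.5 to 22.8 FPKM, with its lowest value in Cont CM library 1. With that trend removed ELOVL6 fell and passed (-0.27, adjusted p = 0.0429). ELOVL1, ELOVL5 and ELOVL7 ranged over 54.0 to 65.7, 73.1 to 78.3 and 3.62 to 4.83 FPKM. ACACB, the carboxylase at the mitochondrion, was below the filter. It was at 0.576, 0.530 and 0.544 FPKM in No CM, 0.362, 0.442 and 0.431 in Cont CM and 0.468, 0.460 and 0.455 in TIS CM, and was not tested. The median log2 difference of the 11 tested genes was -0.18, with 8 of 11 below 0, against a median of -6e-04 and 50.2% below 0 over all tested genes. Without Cont CM library 1 the median was -0.099.

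None of the 18 genes of the sterol arm rose or fell in Cont CM by limma, at any of the steps from acetoacetyl-CoA to cholesterol that were measured. At an unadjusted p under 0.05 there were 2 of 18. The share of all tested genes at that looser threshold was not counted, but it was at least the 16.3% past the adjusted threshold. LSS, which closes the first sterol ring, was at 15.0, 15.9 and 15.7 FPKM in No CM and 15.2, 12.6 and 13.2 in Cont CM, a log2 difference of -0.18 (adjusted p = 0.0773). HMGCS1, which starts the mevalonate route, was at 6.30, 5.61 and 5.82 FPKM in No CM and 5.05, 5.23 and 5.66 in Cont CM, a difference of -0.14 (adjusted p = 0.128). Their groups overlapped. With voom on the recovered fragments LSS passed (adjusted p = 0.0382), and with the GC and length trend removed HMGCS1 passed (adjusted p = 0.0452). Without Cont CM library 1, LSS (-0.26, adjusted p = 0.00472) and TM7SF2 (-0.40, adjusted p = 0.0335), a sterol reductase, fell and passed, making 2 of 18. In that analysis 1442 genes fell over all tested genes, against 1191 (8.56%) with all 9 libraries.

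The median log2 difference of the sterol arm was -0.01, with 10 of 18 below 0 and values from -0.24 (TM7SF2) to 0.10 (MSMO1). The 95% intervals of single genes ran from -0.56 to 0.36 at their widest ends, so changes of the size seen for SREBF1 lay outside all 18, while a change of the size seen for FADS1 lay inside some of them. FDPS, the farnesyl diphosphate synthase, was the 1 sterol gene whose Cont CM and No CM libraries did not overlap, and its difference was only 0.05 (adjusted p = 0.286). It was steady at 26.6 to 28.8 FPKM. LBR, a sterol reductase that also anchors chromatin at the nuclear envelope, had the highest level of the arm (36.9 to 42.9 FPKM). PMVK, EBP, NSDHL, MSMO1, DHCR7, FDFT1, IDI1 and SC5D lay between 8 and 27.1 FPKM. SQLE, MVD, MVK and TM7SF2 lay between 2.17 and 4.37 FPKM. HSD17B7 (0.952 to 1.29 FPKM) has a near-identical pseudogene copy and is uncertain. CYP51A1 (0.483 to 1.24 FPKM) shares 2844 exon bases with an overlapping gene on the same strand that is listed at 0, so its level is uncertain too.

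**Figure D2:**
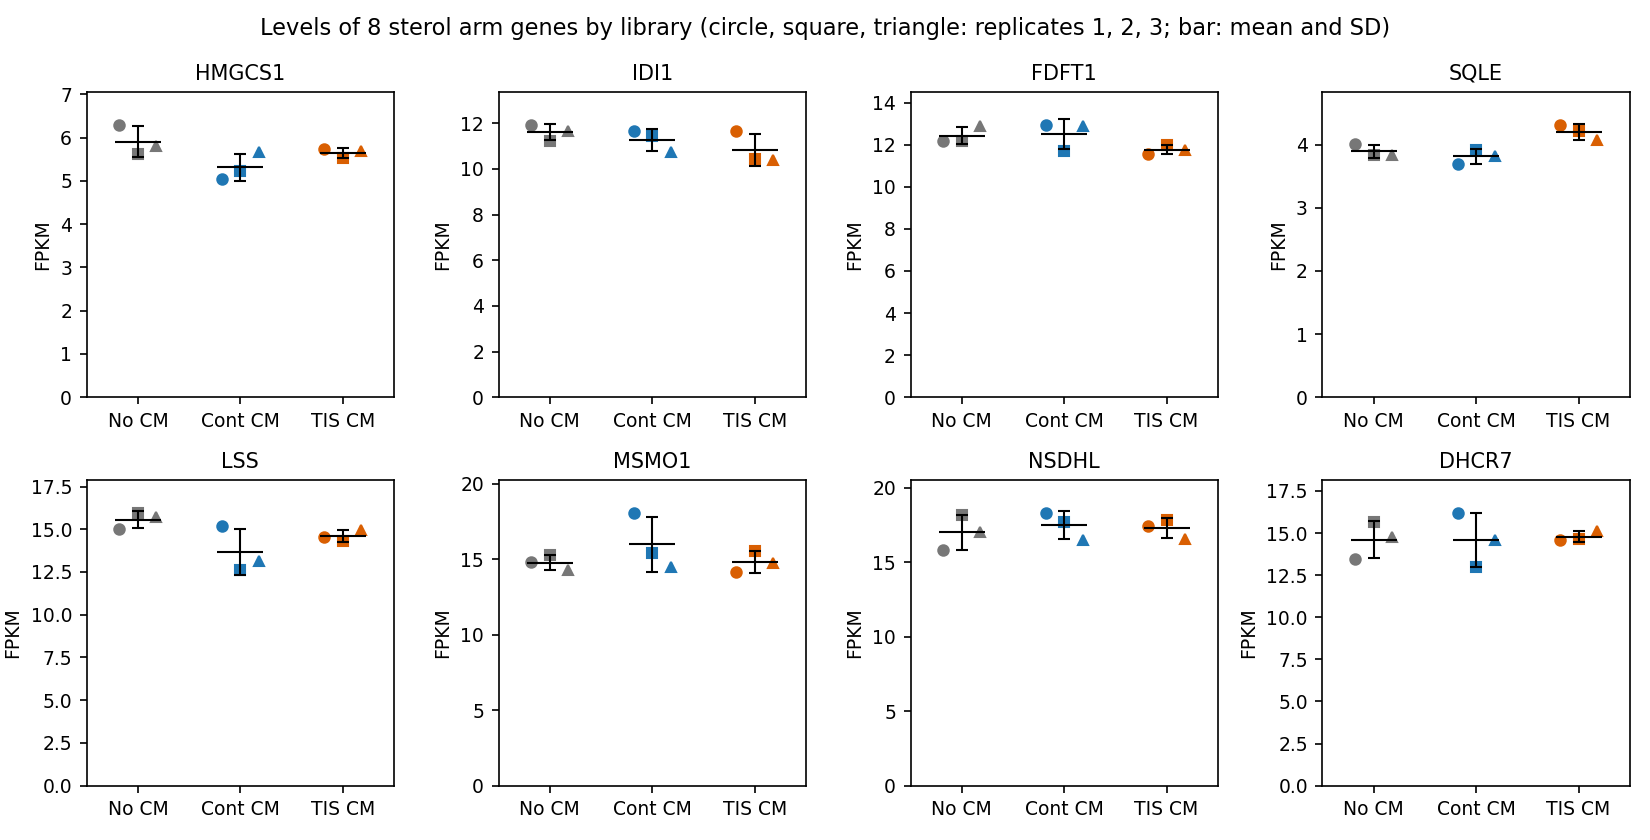
FPKM (vertical axes, from 0) of 8 genes of the sterol arm in each library of the 3 groups. Symbols are replicates 1 to 3, and bars are the mean and SD of 3 libraries. Cont CM overlaps No CM for each of these genes, and for LSS the Cont CM libraries run from 12.6 to 15.2 FPKM against 15.0 to 15.9 in No CM.

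Among the remaining genes, 2 of 8 fell in Cont CM. TMEM97 (chromosome 17, 28319095 to 28328685), a sterol-responsive membrane protein that binds the cholesterol transporter NPC1, was at 17.3, 17.2 and 18.6 FPKM in No CM, 14.4, 16.0 and 15.5 in Cont CM and 16.9, 16.4 and 15.9 in TIS CM. It fell by 0.20 in Cont CM (SE 0.05, adjusted p = 0.0271), with no overlap between the 2 groups. It shares 361 exon bases with IFT20 on the opposite strand, which averaged 4.89 FPKM in No CM and 4.09 in Cont CM (adjusted p = 0.0682). The call for TMEM97 was lost without No CM library 1 (adjusted p = 0.0529), No CM library 3 (0.1) or Cont CM library 3 (0.0538). It was also lost with no filter on low values (0.0559), in a fit of only the 2 groups (0.0702) and with a replicate term (0.0639). STARD4, which carries cholesterol between membranes, did not pass and lay at 6.54 to 8.16 FPKM. Of the acyl-CoA synthetases, ACSL1 did not pass, and ACSL3 showed -0.12 (adjusted p = 0.0689). ACSL3 fell and passed with the GC and length trend removed (-0.19, adjusted p = 0.016). It also passed after rescaling libraries to the same sum of FPKM (-0.14, adjusted p = 0.0368). Without Cont CM library 1 ACSL1 rose and passed (0.18, adjusted p = 0.0323). LPIN1, a phosphatidate phosphatase, showed -0.23 (adjusted p = 0.146).

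All 3 LXR genes were lower on average in Cont CM, and 1 passed. MYLIP (chromosome 6, 16129125 to 16148248), the LXR-induced ubiquitin ligase that marks lipoprotein receptors for degradation, was at 5.20, 4.76 and 5.17 FPKM in No CM, 4.05, 3.90 and 3.60 in Cont CM and 4.01, 4.22 and 3.72 in TIS CM. Every library of both conditioned media was below every No CM library. MYLIP fell by 0.35 in Cont CM (SE 0.06, adjusted p = 0.0076), and passed in every alternative. ABCA1, the LXR-driven cholesterol exporter, was at 3.21, 2.17 and 2.64 FPKM in No CM, 1.69, 2.09 and 2.23 in Cont CM and 1.97, 2.14 and 1.68 in TIS CM. Its No CM libraries spread widely, and the difference of -0.34 did not pass (adjusted p = 0.122). It lay between -0.4541 without No CM library 2 and -0.2171 without No CM library 1. NR1H3, which encodes LXR-alpha, was at 1.89, 1.99 and 2.34 FPKM in No CM, 1.56, 1.59 and 1.82 in Cont CM and 2.00, 1.84 and 1.74 in TIS CM, a difference of -0.25 (adjusted p = 0.0858) between Cont CM and No CM. With protein-coding genes only that difference passed (adjusted p = 0.0493). NR1H3 shares 189 exon bases with ACP2 on the opposite strand.

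**Figure D3:**
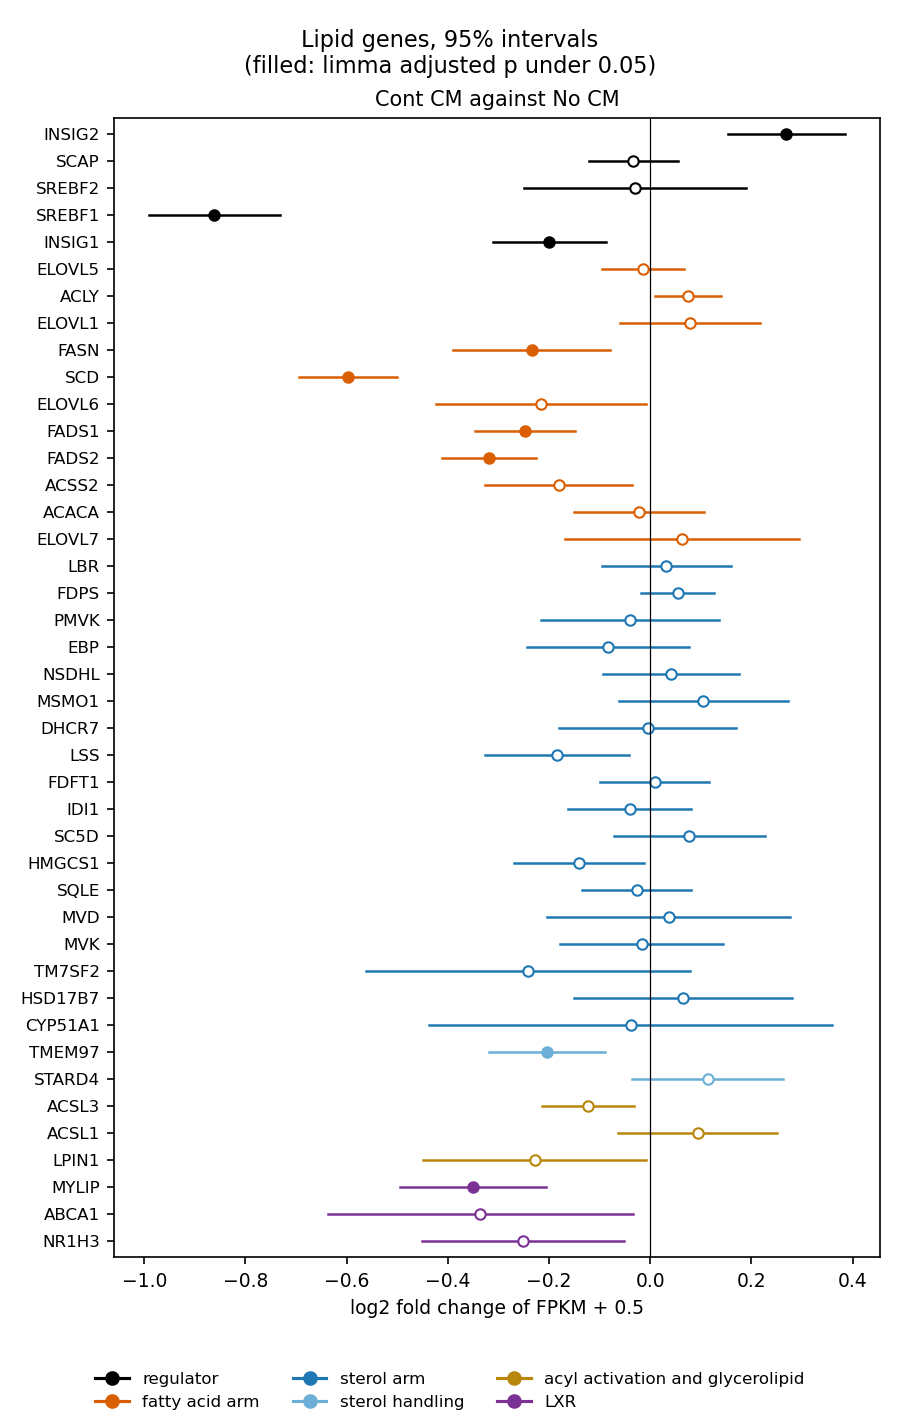
Log2 fold change of FPKM + 0.5 (horizontal axis) in Cont CM against No CM for the 42 tested genes, coloured by role. Points are estimates, lines their 95% intervals, and filled points have a limma adjusted p under 0.05. SREBF1 (-0.86) and SCD (-0.60) lie farthest to the left, INSIG2 is the 1 filled point to the right, and no point of the sterol arm is filled.

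The 2 arms can be set side by side in each library by averaging, over the tested genes of an arm, each gene's log2(FPKM + 0.5) after subtracting its mean over the 9 libraries. For the fatty acid arm the No CM libraries averaged 0.11, 0.04 and 0.10, followed by -0.05, -0.08 and -0.06 in Cont CM, and -0.02, 0.01 and -0.04 in TIS CM. The 3 No CM libraries were above all others and the 3 Cont CM libraries below all others. For the sterol arm it was -0.03, 0.01 and 0.02 in No CM, 0.06, -0.10 and -0.02 in Cont CM, and 7e-04, 0.02 and 0.03 in TIS CM. Here the highest and the lowest of all 9 libraries were both in Cont CM, in libraries 1 and 2. The sterol arm's mean in Cont CM was -0.02 ± 0.08 (SD, n = 3), against 0.004 ± 0.03 in No CM. The fatty acid arm minus the sterol arm was 0.13, 0.02 and 0.08 in No CM, and -0.11, 0.01 and -0.04 in Cont CM. In TIS CM it was -0.02, -0.0028 and -0.07. The No CM libraries were above all libraries of the conditioned media in this difference, by a margin as small as 0.02 against 0.01 between No CM library 2 and Cont CM library 2. No test was made over the arms, since the genes were chosen with earlier results of these data known.

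**Figure D4:**
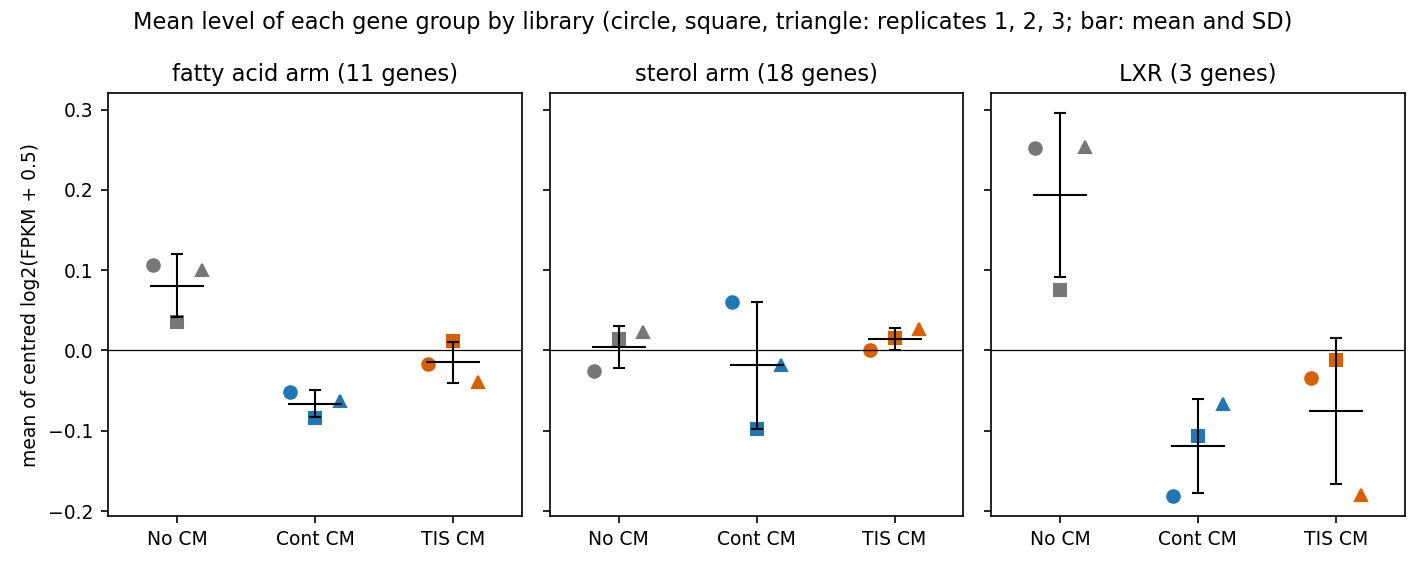
Mean over genes of log2(FPKM + 0.5), each gene centred on its mean over 9 libraries (vertical axis), for 11 fatty acid arm genes, 18 sterol arm genes and 3 LXR genes in each library. Symbols are replicates 1 to 3, and bars are the mean and SD of 3 libraries. In the fatty acid arm the No CM libraries lie at 0.04 to 0.11 and Cont CM at -0.08 to -0.05, while in the sterol arm Cont CM runs from -0.10 to 0.06 around the other groups.

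The comparison at the centre of the series set medium of senescent cells against medium of non-senescent cells. SREBF1 was the 1 gene of the 42 that rose in TIS CM, and none fell. Over all tested genes 2.9% rose and 1.57% fell, 4.48% together. SREBF1 was higher by 0.33 (SE 0.06, 1.26-fold, 95% interval 0.20 to 0.46, limma adjusted p = 0.0206), in 3 of 3 TIS CM libraries against 3 of 3 Cont CM libraries. The size held between 0.25 and 0.39 in all alternatives, but the call did not. Its adjusted p was 0.0632 without Cont CM library 2, and 0.0726, 0.0845 and 0.069 without TIS CM library 1, 2 or 3. With the GC and length trend removed, the rise was 0.25 (adjusted p = 0.0605).

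FADS1 and FADS2 stood above Cont CM in all 3 TIS CM libraries but did not pass (0.11, adjusted p = 0.168, and 0.13, adjusted p = 0.0935). INSIG2 stood below Cont CM in all 3 TIS CM libraries and also did not pass (-0.17, adjusted p = 0.086). SCD differed by only 0.06 between the conditioned media (95% interval -0.04 to 0.15, adjusted p = 0.463). INSIG1 differed by -0.02 (interval -0.13 to 0.10) and MYLIP by 0.04 (interval -0.10 to 0.19), so a rise of SREBF1's size, 0.33, lay outside all 3 intervals. SREBF2 differed by -0.10 (adjusted p = 0.575), and by 0.03 without Cont CM library 1. The fatty acid arm had a median of 0.06 and the sterol arm of 0.03, against 0.0035 over all tested genes. Without Cont CM library 2 the fatty acid arm median was 0.0331. In the sterol arm SQLE, the epoxidase at a rate-setting step, was at 3.70, 3.92 and 3.83 FPKM in Cont CM and 4.32, 4.22 and 4.08 in TIS CM, without overlap (0.13, adjusted p = 0.157). EBP, a sterol isomerase, also did not overlap (0.18, adjusted p = 0.165). None of the 18 passed by limma. SQLE and EBP had an unadjusted p under 0.05. The share of all tested genes at that looser threshold was not counted, but it was at least the 4.48% past the adjusted threshold. Without Cont CM library 1 PMVK (0.24, adjusted p = 0.0425) and LSS (0.17, adjusted p = 0.0436) did pass. Over all tested genes, 7 to 675 rose in the analyses with 1 library left out.

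Medium of senescent cells against plain medium left 2 of the 42 genes lower and none higher. Over all tested genes 0.453% fell and 0.403% rose, 0.855% together. SCD fell by 0.54 (SE 0.04, limma adjusted p = 0.00279) and passed in every alternative. SREBF1 fell by 0.53 (SE 0.06, 1.44-fold, adjusted p = 0.00957). Its adjusted p was 0.0552 without No CM library 1, 0.0552 without No CM library 3, 0.0537 without TIS CM library 1 and 0.0707 without TIS CM library 3. MYLIP (-0.31, adjusted p = 0.0788), FADS2 (-0.185, adjusted p = 0.0912), INSIG1 (-0.22, adjusted p = 0.1) and FADS1 (-0.14, adjusted p = 0.212) did not pass. Each was lower in all 3 TIS CM libraries than in any No CM library. MYLIP passed without Cont CM library 1 (adjusted p = 0.0397), with protein-coding genes only (0.0374) and after rescaling to the same sum of FPKM (0.048). After that rescaling INSIG1 (adjusted p = 0.0427), FADS2 (0.0488) and ACSL3 (-0.21, adjusted p = 0.0492) passed too, and FADS2 passed with voom (0.0404). FASN showed -0.14 (adjusted p = 0.422). The sterol arm had no gene past the threshold by limma. It also had none at an unadjusted p under 0.05, where the share of all tested genes was not counted but was at least 0.855%. Its median was 0.01, against -0.05 for the fatty acid arm and 0.003 over all tested genes. With 1 library left out, the fatty acid arm median lay between -0.0872 (without No CM library 2) and -0.0301 (without No CM library 1), and it also moved by over 1.5 times without TIS CM library 1 or 3.

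The 3 comparisons share libraries, so their differences are not independent. Side by side, SREBF1 averaged 13.5 ± 0.61 FPKM (SD, n = 3) in plain medium, 7.2 ± 0.50 in Cont CM and 9.19 ± 0.34 in TIS CM. SCD averaged 26.3 ± 1.32 FPKM, 17.2 ± 0.33 and 17.9 ± 0.44. The TIS CM level of SREBF1 lay between the other groups, and that of SCD lay near Cont CM. All libraries of both conditioned media were below No CM for SREBF1, SCD, FADS1, FADS2, FASN, INSIG1, TMEM97, ACSL3 and MYLIP. For INSIG2 and FDPS all of them were above No CM. Of the 42 genes, 11 had all Cont CM libraries below all No CM libraries and 3 had all above, against 16.8% and 16.6% of all tested genes. For TIS CM and No CM it was 15 below and 5 above, against 11.6% and 12.7%, and most of these 20 did not pass the test. For TIS CM and Cont CM it was 2 below and 5 above, against 13.6% and 15%.

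**Figure D5:**
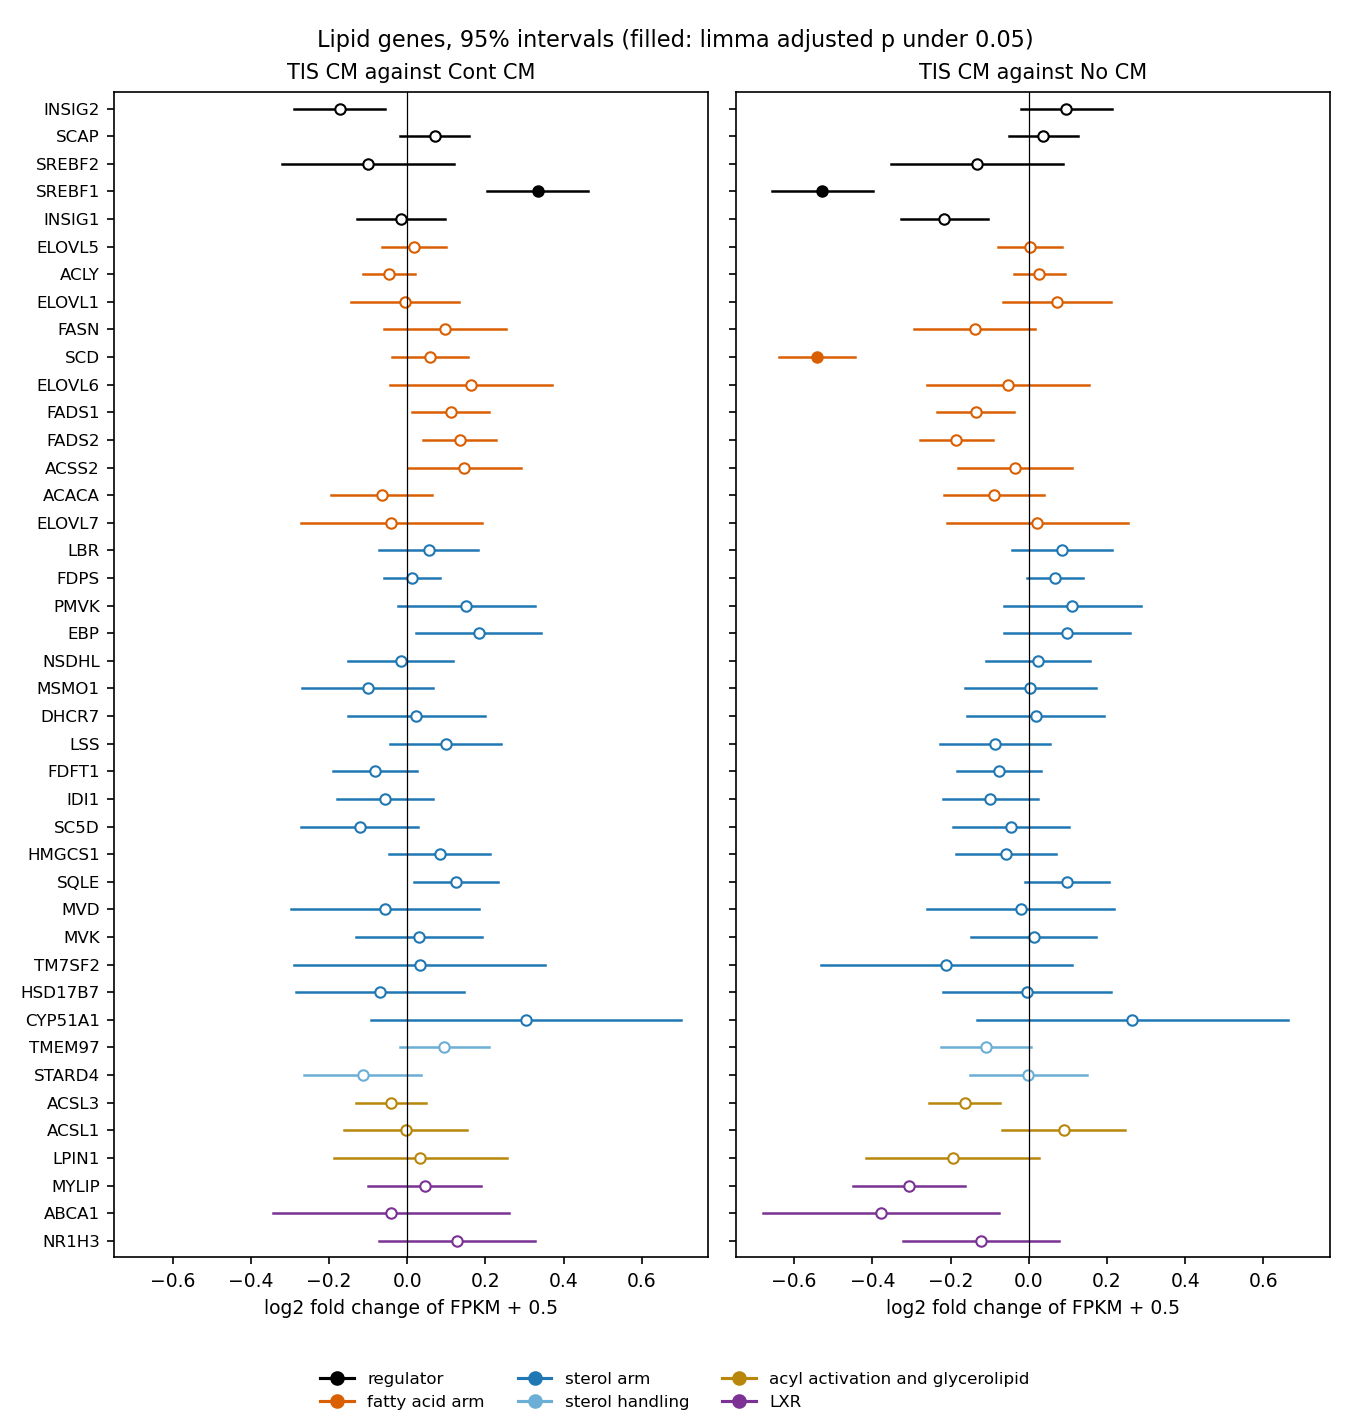
Log2 fold change of FPKM + 0.5 (horizontal axes) in TIS CM against Cont CM (left) and TIS CM against No CM (right) for the 42 tested genes, coloured by role. Points are estimates, lines their 95% intervals, and filled points have a limma adjusted p under 0.05. SREBF1 is the 1 filled point on the left (0.33), and SREBF1 (-0.53) and SCD (-0.54) are the 2 filled points on the right.

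Further genes of lipid synthesis outside the 43 were taken from 4 lists. Their counts in Cont CM against No CM stand beside 7.77% higher and 8.56% lower over all tested genes. Of 8 genes that process or retain SREBP, 1 rose and 1 fell, a share near that of all genes. PAQR3, a Golgi protein that anchors SCAP and SREBP there, rose by 0.34 (adjusted p = 0.00699). ERLIN2, which binds INSIG and SREBP complexes in the endoplasmic reticulum, fell by 0.18 (adjusted p = 0.0343). The site 1 and site 2 proteases MBTPS1 and MBTPS2, which cut SREBP in the Golgi, did not pass. ERLIN2 lost its call without No CM library 1 (adjusted p = 0.104), No CM library 2 (0.086), Cont CM library 2 (0.0824), Cont CM library 3 (0.0711) or TIS CM library 2 (0.0564).

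Of 19 tested genes of further fatty acid and glycerolipid steps, 5 fell and 3 rose in Cont CM, of 26 listed. SLC25A1, the carrier that exports mitochondrial citrate for acetyl-CoA, fell from 37.5 ± 1.57 to 26.6 ± 1.04 FPKM (SD, n = 3 each), by 0.49 on the log2 scale (adjusted p = 0.00042). HACD2 (by 0.33, adjusted p = 0.00503) and TECR (by 0.23, adjusted p = 0.00442), which act with the elongases, fell too. ACSL4, which activates arachidonate, went the other way, from 28.5 ± 0.53 to 38.4 ± 0.35 FPKM, a rise of 0.42 (adjusted p = 0.00017). FADS3 (0.39, adjusted p = 0.0169) and HACD1 (0.19, adjusted p = 0.024) rose as well. FADS3 lost its call without No CM library 1 (adjusted p = 0.0579) or No CM library 3 (0.0672). HACD1 lost it without No CM library 1 (adjusted p = 0.0591), No CM library 2 (0.0782), No CM library 3 (0.0536) or Cont CM library 3 (0.0529). With the GC and length trend removed, neither TECR (-0.14, adjusted p = 0.065) nor HACD1 (0.14, adjusted p = 0.127) passed.

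A list of other mevalonate and sterol genes held 15. Of these, 2 fell and 1 rose in Cont CM, near the 16.3% called over all tested genes. PCYT2 stood in that list although it encodes an enzyme of phosphatidylethanolamine synthesis, not of sterols. It fell from 10.3 ± 0.34 to 6.26 ± 0.61 FPKM, by 0.69 (adjusted p = 0.000309). POR, which supplies electrons to sterol oxidases, fell by 0.20 (adjusted p = 0.0458), and SOAT1, which esterifies cholesterol for storage, rose by 0.22 (adjusted p = 0.0212). POR lost its call in 12 of 21 alternatives (adjusted p up to 0.147), among them those without No CM library 2 or 3, Cont CM library 2 or 3, or any 1 TIS CM library. SOAT1 lost it without No CM library 1 (adjusted p = 0.0616), No CM library 3 (0.0818) or Cont CM library 2 (0.0539). Of 5 tested LXR partners and targets, of 7 listed, RXRB fell by 0.35 (adjusted p = 0.000797) and RXRA by 0.18 (adjusted p = 0.0231), both dimer partners of LXR. RXRA lost its call without No CM library 1 (adjusted p = 0.063), No CM library 2 (0.0524), No CM library 3 (0.0863) or Cont CM library 2 (0.0641). With the GC and length trend removed RXRA showed -0.09 (adjusted p = 0.25), SOAT1 0.15 (0.13) and POR -0.12 (0.147), none past the threshold.

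In TIS CM against Cont CM, 4 of these 47 tested genes rose and 1 fell, against 2.9% and 1.57% of all tested genes, and none of them kept the call when each library was left out in turn. SLC25A1 (0.28, adjusted p = 0.0204), AGPAT2 (0.28, adjusted p = 0.024), PCYT2 (0.45, adjusted p = 0.0122) and RXRB (0.19, adjusted p = 0.0318) rose, and ACSL4 fell by 0.21 (adjusted p = 0.018). Each of the 5 lost its call without any 1 of the 3 TIS CM libraries. SLC25A1, AGPAT2, ACSL4 and RXRB lost it also without Cont CM library 2, AGPAT2 without Cont CM library 3, and RXRB without any 1 No CM library. With the GC and length trend removed, SLC25A1 was 0.14 (adjusted p = 0.178), AGPAT2 0.16 (0.0677), RXRB 0.13 (0.0889) and ACSL4 -0.14 (0.0923), none past the threshold, while PCYT2 passed (0.36, adjusted p = 0.0218). The adjusted p without 1 library reached 0.0817, 0.0912, 0.0626, 0.119 and 0.0768 for SLC25A1, AGPAT2, PCYT2, RXRB and ACSL4. In TIS CM against No CM, ACSL4 alone passed (0.21, adjusted p = 0.0345), and the call held in 0 of the 6 analyses without a library of either group. Its adjusted p there reached 0.158.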

How the data were processed

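Polyadenylated RNA of 9 libraries was sequenced, per the labels' protocols. The authors deposited FPKM for 58735 genes, and the submitters' processing notes name the build hg38 and, without roles, DESeq2 1.20.0, featureCounts 1.5.0-p3, HISAT2 2.0.5 and fastp. Gene length and library size scale FPKM, so a wrong length shifts a gene's level but not the ratio of its FPKM values. Through the added 0.5 and the filter, it can alter a low gene's log2 difference or whether it is tested. Samples were grouped by their labelled treatment. Genes with a mean of at least 0.5 FPKM (13912 genes, 42 of 43 members) were tested with limma 3.58.1 in R 4.3.3 on log2(FPKM + 0.5) over all 9 libraries, with an intensity trend and moderated variances. Benjamini-Hochberg adjustment covered all tested genes, with calls at an adjusted p under 0.05, and the code was checked on simulated data. FPKM times length gave whole fragments for 100% of values (within 0.01), which voom used as an alternative. Other pseudocounts, filters, scalings, subsets, a replicate term and removal of the GC and length trend were also tried. Values by library are given for regulators, LXR genes and every gene called, and up to 3 called genes per direction of each further list are named. GC content came from GENCODE 29. Promoters came from RefSeq, and no entry for FASN, FDFT1 or SQLE was used here. Members and lists were chosen with earlier results of these data known. Figures were drawn with matplotlib 3.10.9.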

Additional observations from a re-analysis of the deposited data

How the results depend on the processing

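Results were recomputed under 12 other settings and with each of the 9 libraries left out. The calls for SREBF1, SCD, FADS1, FADS2, MYLIP and INSIG2 in Cont CM against No CM, and for SCD in TIS CM against No CM, held in every one. No scaling moved the median of all genes by over 0.1 on the log2 scale.

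In Cont CM against No CM, where 8 members fell, 5 fell in a fit of only the 2 groups. With the GC and length trend removed 2 members rose, 1 of them in the fatty acid arm, the fatty acid arm median was -0.13, and 1 sterol gene fell, as 1 did with voom. Of all genes, 1081 rose and 1191 fell, against 573 and 669 in the fit of 2 groups, and 792 fell with no filter on low values. With 1 library left out, 5 to 11 members fell and 1 to 2 rose, 0 to 2 sterol genes fell, 493 to 1333 genes rose and 582 to 1442 fell. The fatty acid arm median then lay between -0.22 and -0.10 (-0.099) and the sterol arm median between -0.0449 and 0.0361. SREBF2 changed sign with the trend removed (0.0255) and without Cont CM library 3 (0.02), and lay between -0.165 and 0.0546 with 1 library left out. SCAP changed sign with the trend removed (0.0383).

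In TIS CM against Cont CM, no member rose in the fit of 2 groups (0) or with the trend removed (0), where the sterol arm median was -0.0255. Of all genes, 404 rose and 219 fell. This became 128 and 79 with no filter, 617 and 378 with protein-coding genes only, 625 and 460 with voom, 23 and 10 with 2 groups, and 93 and 66 with the trend removed, and 395 fell after rescaling to 1 sum of FPKM. With 1 library left out, 0 to 3 members and 0 to 2 sterol genes rose, 7 to 675 genes rose, 4 to 409 fell, and the sterol arm median lay between -0.0178 and 0.0383. SREBF2 turned to 0.0331 without Cont CM library 1 and lay between -0.1865 and that value with 1 library left out. ABCA1 turned to 0.0123 with the trend removed, and lay between -0.1371 (without Cont CM library 1) and 0.0339 (without TIS CM library 3) with 1 library left out.

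In TIS CM against No CM, 6 members fell after rescaling, the fatty acid arm median was then -0.10, and 2 fatty acid genes fell both there and with voom. SCAP turned to -0.01 (-0.0093) after rescaling. Of all genes, 56 rose and 63 fell. This became 23 and 23 with no filter, 94 and 116 with protein-coding genes, 28 and 106 after rescaling, 105 and 140 with voom, and 176 and 155 with 2 groups, and 85 rose with the trend removed. With 1 library left out, 1 to 3 members fell, 6 to 194 genes rose and 3 to 170 fell. Fits with fewer groups or libraries have fewer degrees of freedom. Why these counts changed was not tested for any setting.

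With the replicate number as a replicate block, 5 members fell and 672 genes rose and 789 fell in Cont CM against No CM, no member rose (0) and 95 genes rose and 31 fell in TIS CM against Cont CM, and 1 member fell and 2 genes rose and 2 fell in TIS CM against No CM. Same-numbered libraries did not deviate together, since the correlation exceeded 0.1 in 0 of 9 pairs (-0.187 to 0.0838), so the numbers were not taken to pair the samples.

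Depth limits CYP51A1, HSD17B7 and ACACB, which had 62 to 302 fragments per library.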
